A study of Homo sapiens with 36 samples.

Results

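TXNIP and ARRDC4 encode alpha-arrestins, and both genes are known for following the glucose supply of a cell. They were read in A549 cells, a human line derived from a lung adenocarcinoma and used as a model of the alveolar epithelium, after exposure to cigarette smoke extract (CSE). Each gene was taken from the transcript cluster, the probe group of the array, that carried its symbol alone, and each had 1 such cluster. They were 2 of 18417 genes named by 1 symbol on the array. ARRDC4 was chosen by these measurements: it was selected on its log2 difference between exposed and control cells, which fell with time. No threshold was part of the choice. Its levels and differences are therefore given as a description without a test. TXNIP was tested, but both genes were made members with earlier results of these data known.

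The study exposed A549 cells to CSE at 1%, 5% or 10%, and control cells to the medium alone, for 1, 3 or 5 weeks. Smoke of burning cigarettes was drawn into serum-free culture medium, and this suspension was taken as the undiluted extract. The cells received the dilutions in DMEM with a low share of serum. RNA was hybridized to Human Gene 1.0 ST arrays, giving 36 arrays in 12 groups of 3. All groups were the same cell line, so the replicates were separate experiments with 1 line and not separate donors. Values were log2 levels after robust multi-array averaging (RMA), a background correction, quantile normalization and summary of the probes. A difference of 1 is a 2-fold change.

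Alpha-arrestins are adaptors that bring membrane proteins to ubiquitin ligases. TXNIP binds thioredoxin, a small redox protein, and lowers glucose uptake by taking the transporters GLUT1 and GLUT4 from the cell surface. ARRDC4 is its closest relative in sequence and also lowers glucose uptake. When glucose 6-phosphate accumulates, the transcription factor MondoA (gene MLXIP) or its relative ChREBP (gene MLXIPL) moves to the nucleus with its partner MLX and binds carbohydrate response elements in both promoters. Both transcripts are also known to respond to energy stress and growth signals.

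The stretches of DNA just upstream of both genes are shown because they are where such elements would be sought. They are the 250 bases before the annotated start in the RefSeq promoter table (GRCh38.p14), written 5′ to 3′ on the strand of the gene. TXNIP lies on the minus strand of chromosome 1 (gene at chr1:145992435-145996579, stretch at chr1:145996580-145996829). ARRDC4 lies on the plus strand of chromosome 15 (gene at chr15:97960703-97973833, stretch at chr15:97960453-97960702). Capitals mark matches to the motifs described next.
TXNIP: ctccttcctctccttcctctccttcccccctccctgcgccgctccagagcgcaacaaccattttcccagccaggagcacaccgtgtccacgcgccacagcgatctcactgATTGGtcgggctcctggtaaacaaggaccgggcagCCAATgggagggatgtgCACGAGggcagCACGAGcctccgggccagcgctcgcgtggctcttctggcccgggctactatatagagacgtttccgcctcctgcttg
ARRDC4: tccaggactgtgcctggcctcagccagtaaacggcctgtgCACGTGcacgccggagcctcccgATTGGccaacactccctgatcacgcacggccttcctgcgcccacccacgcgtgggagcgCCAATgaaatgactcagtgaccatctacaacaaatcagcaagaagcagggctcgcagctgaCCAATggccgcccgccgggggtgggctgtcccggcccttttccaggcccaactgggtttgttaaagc

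The search covered 3 motifs on both strands. The E-box CACGTG was in the ARRDC4 stretch, 210 to 205 bases before the start, and was not in that of TXNIP. Of 35116 stretches of this length in the table, 6.34% held it. The second motif was a pair of sites, each within 1 mismatch of CACGTG, with 5 bases between them. It was in the TXNIP stretch, where both sites read CACGAG, 88 to 72 bases before the start, at chr1:145996651-145996667. It was not in that of ARRDC4, and 0.339% of all stretches held it. The CCAAT box, or ATTGG on the other strand, occurred 2 times upstream of TXNIP and 3 times upstream of ARRDC4, and 32% of all stretches held at least 1. A CACGTG can be a member of such a pair, so these motifs overlap. Each match describes letters in the reference and not binding in these cells.

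The control arrays of week 5 stood apart from the rest, and every result at 5 weeks that compares with them rests on them. The standard deviation of their values over all clusters was 2.15 to 2.21, against 2.25 to 2.31 on the other 33 arrays. Their coordinates on the first principal component, which held 38.8% of the variance, were -110.7 to -74.6, against -61.2 to 47.1. Their titles gave 5 weeks and their descriptions gave 3 weeks. They were used as titled. Values with the controls of weeks 1 and 3 in their place are given for both genes, for the counts of related lists and for some other named genes whose call then ended. A call at week 5 printed without such a value may therefore not hold against those controls. The cells carried the transcripts the A549 line is known for: 6 aldo-keto reductase and aldehyde dehydrogenase genes had mean log2 levels of 12.7 to 13.6, against a median of 6.79 over all clusters. Keratins KRT8 and KRT18 were at 13.4 and 13.3. The surfactant gene SFTPC, which defines alveolar type II cells, was at 6.14, and PTPRC, which marks leukocytes, at 3.87. Some listed markers of these cells were above the median of all clusters. ABCA3 and SFTPD of type II cells were at 8.57 and 7.20, and CD68 of leukocytes was at 10.09. The other listed markers of both cell types were below that median.

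TXNIP was read at week 1 close to its highest level in every group. The 3 arrays of each group gave 11.93, 12.11 and 12.18 log2 in controls, 11.99, 12.14 and 12.08 with CSE 1%, 12.50, 12.36 and 12.24 with CSE 5%, and 12.26, 12.34 and 12.24 with CSE 10%. All arrays with CSE 5% and 10% were above all control arrays, while those with CSE 1% overlapped them. At week 3 the values were 11.36, 11.47 and 11.30 in controls, 10.90, 10.995 and 11.02 with CSE 1%, 11.35, 11.42 and 11.48 with CSE 5%, and 11.37, 11.34 and 11.47 with CSE 10%. All CSE 1% arrays lay below the week 3 controls, while those with CSE 5% and 10% overlapped them. At week 5 the values were 12.34, 12.05 and 12.08 in controls, 11.52, 11.46 and 11.46 with CSE 1%, 11.02, 11.11 and 11.16 with CSE 5%, and 10.95, 11.08 and 11.27 with CSE 10%. Every exposed array was then below every control array.

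**Figure D1:**
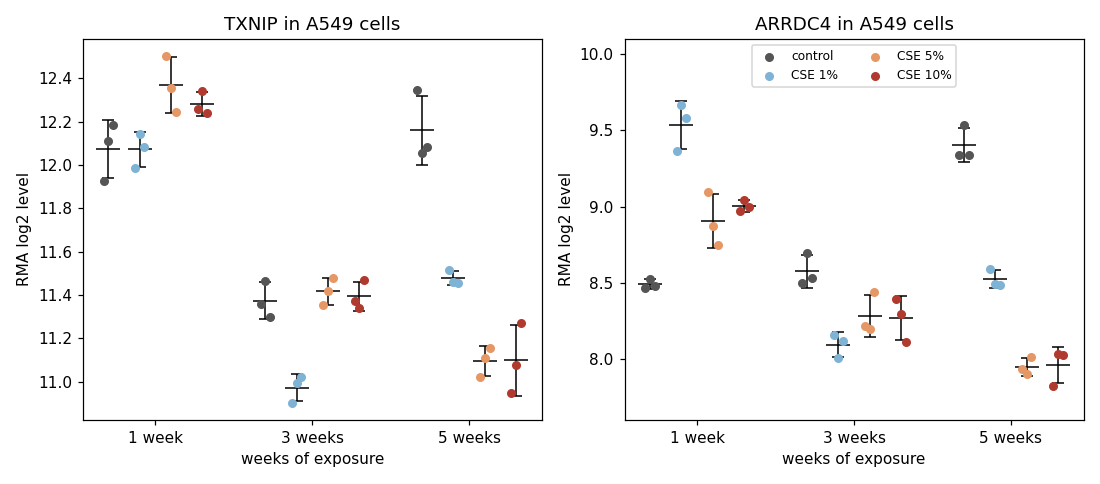
RMA log2 levels of TXNIP (left) and ARRDC4 (right) on each of 36 arrays, by week of exposure and, within a week, control, CSE 1%, 5% and 10%. Points are arrays, horizontal bars are means and whiskers are SD (n = 3). At 5 weeks the control arrays of TXNIP sit between 12.05 and 12.34, above all exposed arrays, and those of ARRDC4 between 9.34 and 9.53.

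Against the control of the same week, TXNIP rose at week 1 with CSE 5% (log2 difference 0.29 ± 0.087 SE, 1.23-fold, adjusted p = 0.0255, limma over all 33297 clusters). With CSE 1% the difference was -0.0022 (95% interval -0.18 to 0.18), and with CSE 10% it was 0.21 (interval 0.028 to 0.38, adjusted p = 0.112). Over all clusters, CSE 1%, 5% and 10% at week 1 called 3.41%, 5.99% and 8.27% as higher and 1.9%, 4.84% and 8.44% as lower. The rise with CSE 5% stood above 89.2% of all clusters, but its call was lost when the control array 1 or the CSE 5% array 1 or 2 was left out (adjusted p 0.133, 0.181 and 0.0601). It was also lost when the 6 arrays were fitted alone (adjusted p = 0.184).

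At week 3 TXNIP fell with CSE 1% alone, by 0.40 on the log2 scale (SE 0.087, 1.32-fold, adjusted p = 0.00185). With CSE 5% the difference was 0.042 (95% interval -0.14 to 0.22) and with CSE 10% it was 0.019 (interval -0.16 to 0.20). The share of all clusters called lower was 5.81%, 9.93% and 12.5% with CSE 1%, 5% and 10%, and the share called higher was 5.67%, 9.7% and 14%. The difference between the concentrations was itself tested: TXNIP was higher with CSE 5% than with CSE 1% by 0.44 (adjusted p = 0.00159) and higher with CSE 10% than with CSE 1% by 0.42 (adjusted p = 0.00132). These contrasts called 5.51% and 12.3% of all clusters in either direction.

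At week 5 TXNIP fell with every concentration. The fall against control was 0.68 with CSE 1% (1.61-fold, adjusted p = 7.99e-07), 1.06 with CSE 5% (2.09-fold, adjusted p = 1.01e-10) and 1.06 with CSE 10% (2.09-fold, adjusted p = 1.01e-10). At this week 33.5%, 40.3% and 39.6% of all clusters were called lower with CSE 1%, 5% and 10%, and 20.3%, 23% and 21.9% higher, so that a call alone sets no gene apart. By size the falls of TXNIP were among the larger ones: 4.51%, 1.93% and 1.92% of all clusters had a lower difference. Against the control arrays of weeks 1 and 3, TXNIP was lower by smaller amounts, with differences of -0.25, -0.63 and -0.63 (adjusted p 0.0241, 1.89e-07 and 1.93e-07), and 7.43%, 13% and 16% of all clusters were then called lower.

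The concentrations were ordered at week 5 as well, but the other way round from week 3. TXNIP was lower with CSE 5% than with CSE 1% by 0.38 (difference -0.38, adjusted p = 0.00835) and lower with CSE 10% than with CSE 1% by the same amount (difference -0.38, adjusted p = 0.00408). These contrasts, which use no control array, called 3.54% and 8.67% of all clusters. At week 1 the matching differences were 0.30 (adjusted p = 0.0341) and 0.21 (adjusted p = 0.134), in contrasts that called 6.73% and 11.9%. CSE 10% and CSE 5% were within 0.088 of each other at each week. The intervals of their difference were -0.27 to 0.090 at week 1, -0.20 to 0.16 at week 3 and -0.18 to 0.18 at week 5.

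The effect of exposure on TXNIP changed between the weeks. The log2 difference from control at week 5 less that at week 1 was -0.68 with CSE 1% (adjusted p = 3.45e-04), -1.36 with CSE 5% (adjusted p = 1.17e-08) and -1.27 with CSE 10% (adjusted p = 2.45e-08). This contrast called 21%, 30.7% and 29.6% of all clusters. Week 3 less week 1 gave -0.40, -0.25 and -0.19, and none of these passed (adjusted p 0.0572, 0.334 and 0.433), in contrasts that called 4.9%, 3.23% and 9.13%.

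**Figure D2:**
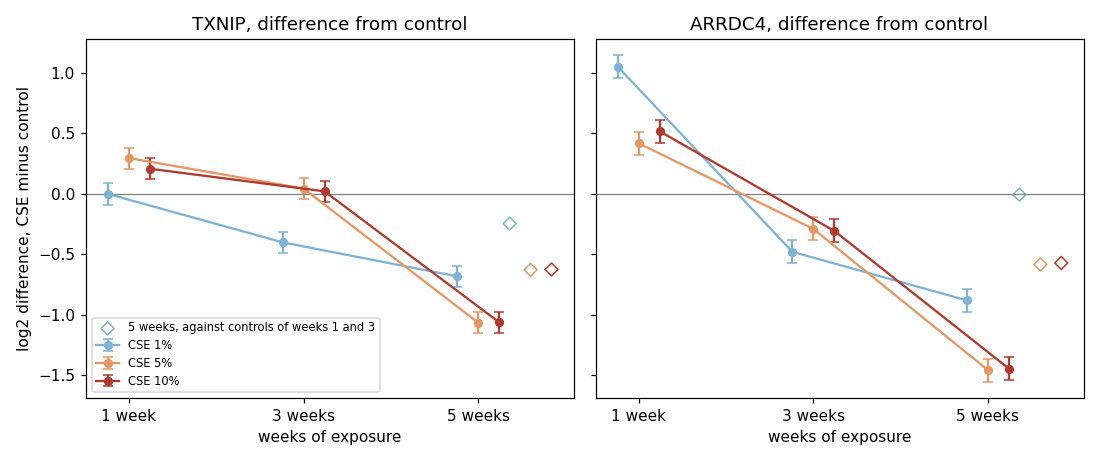
Log2 difference, CSE minus control of the same week, for TXNIP (left) and ARRDC4 (right) at 1, 3 and 5 weeks. Filled points are differences with the SE of the fit, and open diamonds, in the colour of each concentration, give the week 5 cells against the controls of weeks 1 and 3. The difference of ARRDC4 with CSE 1% is 1.05 at 1 week and -0.88 at 5 weeks, and its open diamond is at -0.0084.

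Between weeks 1 and 5 the control level of TXNIP differed by 0.086 (adjusted p = 0.433), with overlapping arrays. In cells with CSE 1%, 5% and 10%, week 5 was below week 1 by differences of -0.59, -1.27 and -1.18. The adjusted p-values were 1.61e-05, 6.03e-12 and 3.40e-11, and 2.32%, 0.195% and 0.399% of all clusters had a lower difference. At week 3 both the exposed cells and the controls had moved. In controls, TXNIP at week 3 was below week 1 by 0.70 (difference -0.70, adjusted p = 1.18e-06), and at week 5 it was above week 3 by 0.79 (adjusted p = 2.03e-07). These contrasts called 11.5% and 53.5% of all clusters. Week 3 was below week 1 in exposed cells too, with differences of -1.10, -0.95 and -0.89 for CSE 1%, 5% and 10% (adjusted p 4.09e-10, 4.36e-09 and 1.01e-08, with 21.4%, 18% and 24.4% of all clusters called). From there the exposed groups went different ways. Week 5 was above week 3 with CSE 1% (0.50, adjusted p = 4.99e-04, 6.33% called) and below it with CSE 10% (-0.29, adjusted p = 0.0436, 5.21% called). With CSE 5% the difference was -0.32 (adjusted p = 0.0703, 0.928% called). The calendar week and the duration of exposure cannot be told apart in these contrasts.

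The 12 group means of TXNIP ran from 12.37 ± 0.13 log2 (SD, n = 3, CSE 5% at week 1) down to 10.97 ± 0.061 (CSE 1% at week 3). The highest 5 groups were the 4 groups of week 1 and the control of week 5. Below them came CSE 1% of week 5 with 3 groups of week 3, and last CSE 10% and CSE 5% of week 5 and CSE 1% of week 3. Of the 11 pairs of neighbours in this order, 3 had arrays that did not overlap. They were CSE 1% of week 1 above CSE 1% of week 5, the control of week 3 above CSE 10% of week 5, and CSE 5% of week 5 above CSE 1% of week 3, the last by 11.021 against 11.019 at the closest arrays.

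ARRDC4 was the gene whose values chose it, so the following levels are a description. At week 1 the arrays gave 8.46, 8.53 and 8.48 log2 in controls, 9.36, 9.67 and 9.58 with CSE 1%, 9.10, 8.87 and 8.75 with CSE 5%, and 8.97, 9.05 and 8.995 with CSE 10%. All 9 exposed arrays lay above the 3 controls, and those with CSE 1% were highest. The differences from control were 1.05 (SE 0.095, 2.07-fold), 0.42 (1.33-fold) and 0.51 (1.43-fold), which stood above 99.8%, 94.0% and 94.2% of all clusters. At week 5 the values were 9.34, 9.53 and 9.34 in controls, 8.59, 8.49 and 8.49 with CSE 1%, 7.93, 7.90 and 8.01 with CSE 5%, and 7.82, 8.03 and 8.03 with CSE 10%. All exposed arrays lay below the controls, with CSE 1% nearest to them. CSE 5% and 10% lay below CSE 1% by similar amounts (-0.58 and -0.56). The differences were -0.88 (1.84-fold lower), -1.46 (2.74-fold lower) and -1.44 (2.72-fold lower), with 1.80%, 0.529% and 0.583% of all clusters further down. In the controls of weeks 1 and 3 the level was lower than in those of week 5, and against them the differences were -0.0084, -0.58 and -0.57. CSE 1% at week 5 was thus level with those earlier controls.

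At week 3 ARRDC4 was 8.50, 8.69 and 8.53 log2 in controls, 8.16, 8.004 and 8.12 with CSE 1%, 8.22, 8.19 and 8.44 with CSE 5%, and 8.39, 8.30 and 8.11 with CSE 10%. Every exposed array was below every control array. The differences from control were -0.48 with CSE 1% (SE 0.095, 1.39-fold lower), -0.29 with CSE 5% (1.22-fold lower) and -0.31 with CSE 10% (1.24-fold lower), and 3.26%, 13.1% and 13.4% of all clusters lay further down. After each array was centred on housekeeping genes, the differences with CSE 5% and 10% were both -0.14. The groups with CSE 5% and 10% lay above CSE 1% by 0.19 and 0.17, with overlapping arrays at CSE 10%.

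**Figure D3:**
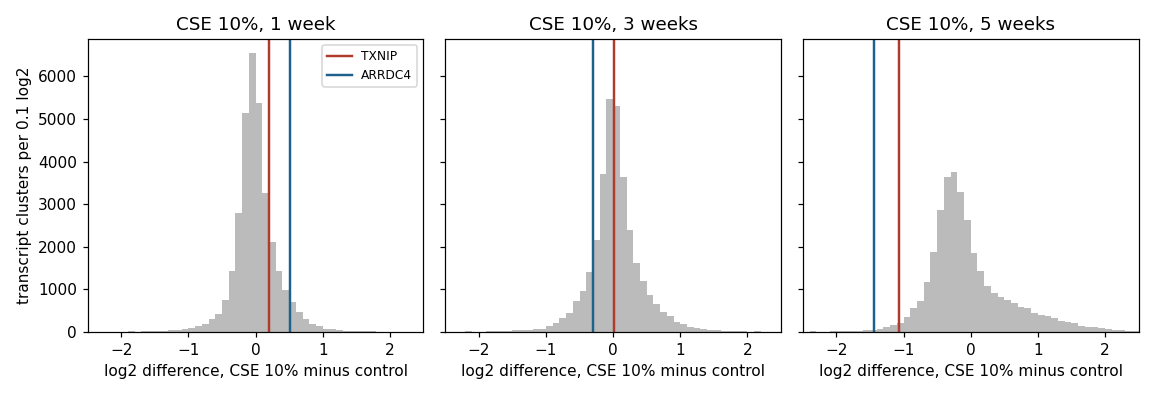
Distribution of log2 differences, CSE 10% minus control, over 33297 transcript clusters at 1, 3 and 5 weeks, in bins of 0.1. Vertical lines mark TXNIP and ARRDC4. At 5 weeks the median of all clusters is -0.17 and the lines are at -1.06 and -1.44, while at 3 weeks TXNIP is at 0.019.

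The ARRDC4 means ran from 9.54 ± 0.16 log2 (SD, n = 3, CSE 1% at week 1) to 7.95 ± 0.058 (CSE 5% at week 5). The control of week 5 was second at 9.40 ± 0.11, and the controls of weeks 1 and 3 were in the middle at 8.49 ± 0.033 and 8.57 ± 0.11. Here 3 of 11 neighbouring pairs did not overlap: the control of week 5 above CSE 10% of week 1, CSE 5% of week 1 above the control of week 3, and the control of week 1 above CSE 5% of week 3. In exposed cells week 3 lay below week 1, by differences of -1.44, -0.62 and -0.74 with CSE 1%, 5% and 10%. Week 5 then lay above week 3 with CSE 1% (0.43) and below it with CSE 5% and 10% (-0.34 and -0.31), the same directions as for TXNIP. In control cells ARRDC4 differed by 0.085 between weeks 3 and 1, where TXNIP differed by -0.70, and by 0.83 between weeks 5 and 3.

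Over the 12 group means the 2 genes ran largely in parallel (Pearson r = 0.83, Spearman rho = 0.79). These points share controls, normalization and weeks, and the values are a description. Without the 2 groups farthest from the median of TXNIP, r was 0.86 (n = 10), and over the 9 exposed groups alone it was 0.88. Within groups, over 36 arrays each taken less its group mean, r was 0.38 and rho was 0.35. The genes parted in the control of week 1, where TXNIP was high at 12.07 and ARRDC4 was at 8.49, and at week 3 with CSE 5% and 10%, where ARRDC4 was at -0.29 and -0.31 against control and TXNIP at 0.042 and 0.019. Whether those differences between the genes exceed their error was not tested.

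**Figure D4:**
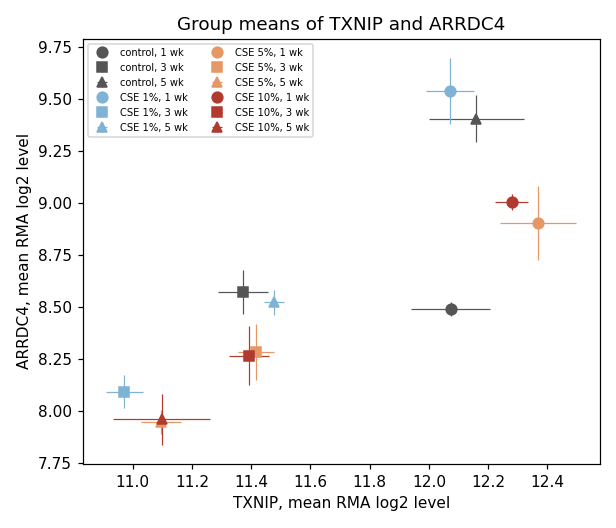
Mean RMA log2 level of ARRDC4 against that of TXNIP in the 12 groups, with SD (n = 3) in both directions. Colours give the concentration and marker shapes the week. The week 5 groups with CSE 5% and 10% sit at the lower left (11.10 and 7.95, 11.10 and 7.96), and the control of week 1 (12.07 and 8.49) lies below the other groups with high TXNIP.

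Among 4273 genes whose group means spanned at least 1 log2 unit, the pattern of TXNIP over the 12 means was most like those of HAX1 (r = 0.92), RNF187 (0.92), SNORD105 (0.90), EIF4EBP1 (0.90) and JDP2 (0.89). It was most opposed to C18orf54 (-0.93), SGO2 (-0.92) and SAMHD1 (-0.92). ARRDC4 stood at rank 44. EIF4EBP1 encodes an inhibitor of translation initiation, JDP2 a repressor that dimerizes with JUN proteins, and SGO2 a guardian of centromeric cohesion. For ARRDC4 the most alike were RHCG (0.91), TFAP2C (0.91), NEU1 (0.90), MAFF (0.89) and SERINC2 (0.89), with TXNIP at rank 23. RHCG is an ammonia channel, TFAP2C a transcription factor of epithelia, NEU1 the lysosomal sialidase and MAFF a small MAF protein. The most opposed were NXN (-0.86), POLR3GL (-0.86) and IFT81 (-0.85). NXN encodes nucleoredoxin, a relative of thioredoxin.

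Counts of related genes are given for CSE 10%, where 8.27%, 14% and 21.9% of all clusters rose at weeks 1, 3 and 5 and 8.44%, 12.5% and 39.6% fell. The medians over all clusters were -0.023, 0.013 and -0.17. Where the controls of weeks 1 and 3 were used instead, called here the earlier controls, 15% of all clusters were higher and 16% lower at week 5. The other alpha-arrestins did not share one course. ARRDC2 fell with CSE 5% and 10% at every week, with log2 differences from -0.85 to -0.57, and differed by -0.22 to 0.014 with CSE 1%, where it did not pass. ARRDC3, which in other settings promotes the degradation of the beta2-adrenergic receptor, rose with every concentration at weeks 3 and 5 (0.37 to 0.77) and with CSE 10% at week 1 (0.38, adjusted p = 0.0141). ARRDC1, which is known for budding of vesicles from the plasma membrane, rose with CSE 1% at week 3 (0.40) and fell at week 5 with CSE 5% (-0.29, adjusted p = 0.0134) and CSE 10% (-0.32, adjusted p = 0.00753). Against the earlier controls, both of these calls ended (-0.15 and -0.18, adjusted p 0.228 and 0.127). Of the classical arrestins, ARRB1, which desensitizes receptors, fell in 7 of 9 comparisons (-0.75 to -0.49), and the visual arrestins SAG and ARR3 passed in none.

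The factors that drive both genes were measured too. MLX, the obligate partner, fell in 8 of 9 comparisons, by 0.33 to 0.50 on the log2 scale, and was at -0.19 (adjusted p = 0.284) with CSE 1% at week 1. MLXIP rose with CSE 1% at weeks 3 and 5 (0.52 and 0.47) and passed nowhere else. MLXIPL fell with CSE 5% and 10% at week 1 (-0.41 and -0.48) and with CSE 10% at week 5 (-0.36). MXD1, a repressor that shares the partners of this network, rose at week 1 with every concentration (1.25, 0.68 and 1.33) and at week 3 with CSE 1% (1.15), and differed by -0.24 to 0.10 at week 5. MXI1, a repressor of the same family, rose with CSE 10% at weeks 1, 3 and 5 (0.42, 0.39 and 0.61), and MGA, which also pairs with MAX, rose at week 5 with each concentration (0.74, 0.83 and 0.80). Set against those earlier controls, neither passed at week 5 at any concentration, and the values with CSE 10% were 0.21 for MXI1 (adjusted p = 0.0636) and 0.22 for MGA (adjusted p = 0.175). MXD1 with CSE 1% then passed at 0.35 (adjusted p = 0.0122). MYCN, another network member, fell at week 5 with CSE 5% and 10% (-0.68 and -0.41). Against the earlier controls it was at -0.37 and -0.098 (adjusted p 0.00672 and 0.497). Of 13 listed network members, 4 rose and 3 fell with CSE 10% at week 1, 1 rose and 3 fell at week 3, and 2 rose and 8 fell at week 5, when 21.9% of all clusters rose and 39.6% fell. The medians were 0.0033, -0.11 and -0.26. When the earlier controls were used, 0 were higher and 6 lower at week 5.

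Among other genes known to carry carbohydrate response elements, more fell than rose with CSE 5% and 10% at each week. With CSE 1% this was so at week 5 only. Of 16 such genes, 2 rose and 8 fell with CSE 10% at week 1, 1 rose and 5 fell at week 3, and 2 rose and 11 fell at week 5 (medians -0.28, -0.11 and -0.40). Over all clusters 8.44%, 12.5% and 39.6% fell at these weeks. Relative to the earlier controls, 2 were higher and 9 lower at week 5. PFKFB3, whose product activates glycolysis, rose in all 9 comparisons (0.66 to 1.38), and GPD1, a glycerol 3-phosphate dehydrogenase, fell in all 9 (-0.99 to -0.39). KLF10, a zinc finger repressor induced by glucose in liver, rose with CSE 1% at week 1 (0.28, adjusted p = 0.0330, a call lost under each of 3 other scalings). It differed by 0.14 and 0.19 with CSE 5% and 10%, and fell at weeks 3 and 5 with every concentration (-0.70 to -0.33). BHLHE40, a circadian repressor, rose with CSE 1% at weeks 1 and 3 (0.28 and 0.31) and fell in the other 7 comparisons (-0.81 to -0.42). SCD, the desaturase that makes monounsaturated fatty acids, fell steeply at week 1 with CSE 5% and 10% (-1.58 and -1.63) and rose with CSE 1% (0.32).

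**Figure D5:**
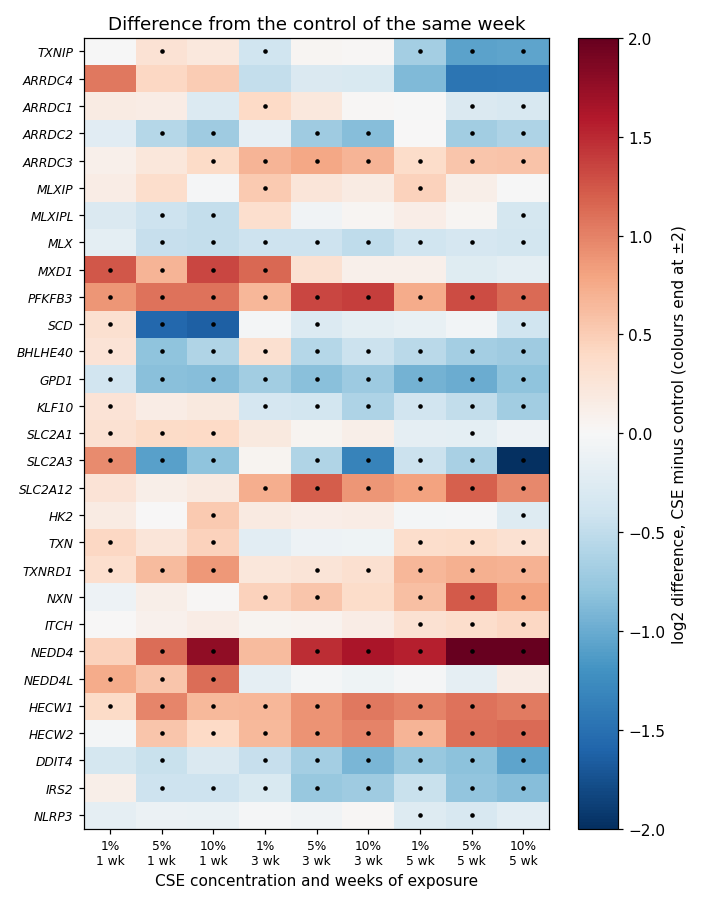
Log2 difference from the control of the same week for TXNIP, ARRDC4 and related genes (rows) in 9 comparisons (columns: CSE concentration and week). Red is higher and blue is lower with CSE, colours end at ±2, and dots mark an adjusted p under 0.05, with ARRDC4 not tested. PFKFB3 is higher and GPD1 lower in all columns, and NEDD4 reaches 2.73 with CSE 10% at 5 weeks.

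Glucose transporters, through which the arrestins act on sugar uptake, were listed together with hexokinases. Of 20 measured, 3 rose and 4 fell with CSE 10% at week 1, 1 rose and 4 fell at week 3, and 3 rose and 13 fell at week 5 (medians -0.070, 0.093 and -0.29). Against the earlier controls, 3 were higher and 4 lower at week 5. Over all clusters 8.44%, 12.5% and 39.6% fell at weeks 1, 3 and 5. SLC2A1, which encodes the ubiquitous transporter GLUT1, rose at week 1 with each concentration (0.30, 0.38 and 0.39) and differed by 0.054 to 0.20 at week 3. At week 5 it fell with CSE 5% (-0.19, adjusted p = 0.0363) and was at -0.18 and -0.095 with CSE 1% and 10%. Set against those earlier controls, the value with CSE 5% was -0.11 (adjusted p = 0.256). SLC2A3, which encodes the high-affinity transporter GLUT3, rose with CSE 1% at week 1 (0.94) and fell with CSE 5% and 10% at every week, most with CSE 10% at week 5 (-2.02, adjusted p = 1.80e-16). With CSE 1% at week 5 SLC2A3 was also lower, but against the earlier controls it was at -0.0997 (adjusted p = 0.457). Its near-identical copy SLC2A14 moved alongside it (-0.80 with CSE 10% at week 5), and their probes may not tell the transcripts apart. SLC2A12, which encodes GLUT12, rose at weeks 3 and 5 with every concentration (0.72 to 1.20). HK2, the inducible hexokinase, rose with CSE 10% at week 1 (0.53) and fell with it at week 5 (-0.26, adjusted p = 0.0293). That fall was -0.14 with the controls of weeks 1 and 3 (adjusted p = 0.255). SLC37A4, the glucose 6-phosphate transporter of the endoplasmic reticulum, fell in 7 of 9 comparisons (-0.81 to -0.42).

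The thioredoxin system is the other known partner of TXNIP, and ARRDC4 does not bind thioredoxin. TXNRD1, the cytosolic reductase that recharges thioredoxin, rose in 8 of 9 comparisons (0.26 to 0.86) and was at 0.22 with CSE 1% at week 3. TXN itself rose with CSE 1% and 10% at week 1 (0.41 and 0.46) and with every concentration at week 5 (0.30 to 0.37). When the earlier controls were used, TXN at week 5 was at 0.14, 0.15 and 0.091 and did not pass (adjusted p 0.359, 0.221 and 0.485). NXN rose at week 5 (0.60, 1.23 and 0.80) and with CSE 1% and 5% at week 3 (0.46 and 0.56). PRDX4, the peroxiredoxin of the endoplasmic reticulum, fell with CSE 10% at each week (-0.50, -0.74 and -0.48). Of 17 members measured, 5 rose and 2 fell with CSE 10% at week 1, 1 rose and 5 fell at week 3, and 8 rose and 5 fell at week 5 (medians 0.023, -0.092 and 0.13). Over all clusters 8.27%, 14% and 21.9% rose and 8.44%, 12.5% and 39.6% fell. Against the controls of weeks 1 and 3 the week 5 count was 2 higher and 8 lower.

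The ligases of the NEDD4 family, which alpha-arrestins recruit through PPxY motifs, were mostly higher. With CSE 10%, 6 of 9 rose and 0 fell at week 1, 5 rose and 1 fell at week 3, and 6 rose and 1 fell at week 5. Over all clusters 8.27%, 14% and 21.9% rose. The medians of the ligases were 0.61, 0.50 and 0.88, against -0.023, 0.013 and -0.17 over all clusters. Relative to the earlier controls, 5 were higher and 1 lower at week 5. NEDD4 rose with CSE 5% and 10% at each week and with CSE 1% at week 5, where the differences were 1.55, 2.68 and 2.73. HECW1 rose in all 9 comparisons (0.38 to 1.09) and HECW2 in 8 (0.41 to 1.13). NEDD4L rose at week 1 (0.74, 0.55 and 1.12) and passed at no later week, except at 0.34 with CSE 10% at week 5 against the earlier controls (adjusted p = 0.00304). ITCH, the ligase known to mark TXNIP protein for degradation, rose at week 5 (0.30, 0.35 and 0.41), but with the controls of weeks 1 and 3 it was at -0.10, -0.058 and 0.0083 (adjusted p 0.455, 0.651 and 0.952). NEDD4 was then at 1.56 with CSE 10% (adjusted p = 1.34e-06) and at 0.39 with CSE 1% (adjusted p = 0.248).

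The inflammasome, which TXNIP protein can bind through NLRP3, had few members that passed before week 5. With CSE 10%, 0 of 7 rose and 1 fell at week 1, 1 rose and 0 fell at week 3, and 2 rose and 2 fell at week 5, when 21.9% of all clusters rose and 39.6% fell. Against the earlier controls, 1 was higher and 0 lower. NLRP3 fell at week 5 with CSE 1% and 5% (-0.26 and -0.32), and was at -0.011 and -0.055 after cyclic loess normalization and at -0.066 and -0.13 with the controls of weeks 1 and 3 (adjusted p 0.681 and 0.281). IL18 rose at week 5 (1.11, 0.97 and 1.29). Its differences were -0.10, -0.24 and 0.083 (adjusted p 0.769, 0.315 and 0.756) when the controls of weeks 1 and 3 were used. PYCARD, the adaptor of the complex, rose at week 5 with each concentration (0.43, 0.63 and 0.52), and was at 0.70 with CSE 10% against those other controls. AIM2 and NLRC4, sensors of DNA and of bacterial proteins, fell at week 5 (-0.54 to -0.27 and -0.57 to -0.35) and passed at no concentration against the other controls, where they were at 0.085 and 0.097 with CSE 10%.

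Regulators of energy and insulin signalling act on TXNIP from outside the glucose pathway. DDIT4, an inhibitor of the mTORC1 kinase, fell in 7 of 9 comparisons (-1.06 to -0.44), and IRS2, an insulin receptor substrate, in 8 (-0.85 to -0.31). IRS1 rose in 8 (0.68 to 1.05). PRKAA1, the catalytic subunit of the AMP-activated kinase that phosphorylates TXNIP, rose at week 3 with CSE 5% and 10% (0.71 and 0.79) and at week 5 with all concentrations (1.09, 1.54 and 1.52). Set against those earlier controls, its week 5 values were -0.042, 0.41 and 0.39, and all 3 calls ended (adjusted p 0.906, 0.0530 and 0.0584). Of 16 measured, 1 rose and 2 fell with CSE 10% at week 1, 3 rose and 7 fell at week 3, and 4 rose and 8 fell at week 5 (medians -0.021, -0.24 and -0.23). Over all clusters 21.9% rose and 39.6% fell at week 5. When the earlier controls were used, 2 were higher and 7 lower.

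Marker genes of several cell types also differed at week 5, where both arrestins were below control, and the epithelial ones not in the same way at each concentration. With CSE 10% at week 5, 5 of 6 epithelial markers fell (median -0.74) and 0 rose, 5 of 6 markers of the A549 line rose (median 0.37), and 5 of 7 fibroblast, 4 of 5 endothelial, 3 of 5 leukocyte and 3 of 6 alveolar type II markers fell (medians -0.29, -0.26, -0.39 and -0.24, against -0.17 over all clusters), when 39.6% of all clusters fell and 21.9% rose. Relative to the earlier controls, 6 of 6 epithelial markers were lower and 4 of 6 markers of the line higher, while 1 fibroblast, 0 endothelial, 1 leukocyte and 0 alveolar type II markers were lower. With CSE 1% at week 5, 2 epithelial markers rose (EPCAM 1.04 and CDH1 0.38) and 4 fell. With CSE 5%, 1 rose (CDH1 0.25) and 4 fell. Over all clusters 20.3% and 23% rose and 33.5% and 40.3% fell. Against the earlier controls, 0 were higher at both concentrations, and 1 and 6 were lower. LUM, DCN and PTPRC had mean levels of 3.86 to 3.89 log2, while CD68, listed as a leukocyte marker, was at 10.09. All groups were the A549 line, and the cultures as described held no fibroblasts, endothelial cells or leukocytes. In bulk RNA, a change in some of the cells and a change in all of them cannot be told apart. The part of these changes in the levels of TXNIP and ARRDC4 was not tested.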

How the data were processed

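Total RNA of A549 cells was hybridized to Affymetrix Human Gene 1.0 ST arrays by the authors. The deposited values were log2 levels per transcript cluster after RMA, made in R 2.11.0 with RMA and tested with limma according to the submitters' notes on processing. Raw scans, scan dates and the genome build of the array annotation were not given in the sources used here. Because RMA draws all arrays towards one distribution, a difference is relative to the other genes of the array. The medians of the arrays still ran from 6.72 to 6.91 log2. With CSE 10% at week 5 the median difference over all clusters was -0.17, and it was -0.034 after cyclic loess. A shift shared by many genes may thus be removed only in part. Of 33297 clusters, 19460 carried 1 symbol, 1754 several and 12083 none. For a gene with several clusters, that with the highest mean was used.

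One mean per group was fitted to all 36 arrays with limma 3.58.1 (R 4.3.3), with 24 residual and 3.91 prior degrees of freedom. The empirical Bayes test was two-sided, and p-values were adjusted by Benjamini-Hochberg over all clusters with a threshold of 0.05. The fit was tested on simulated data. With 3 arrays per group, their number limits the precision, and p-values measure the spread between experiments with 1 cell line.

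The members and the gene lists were chosen with earlier results of these data known. Named genes were the other alpha-arrestins, 11 genes of the pathway, up to 4 of each list with the smallest p over the 9 comparisons with control, and the 5 genes most and 3 least like each member. A planned test of ARRDC4 at week 3 was left out, because the choice of that gene could draw on every week. Medians and counts of lists carry no test. Alternatives comprised leaving out arrays, blocks, other scalings, weights, filters and other controls. Promoter letters came from RefSeq tables.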

Additional observations from a re-analysis of the deposited data

Results flagged for a closer look

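The effect of exposure differed between week 5 and week 1 for TXNIP at each concentration, tested as an interaction in limma. The log2 difference from control at week 5 less that at week 1 was -0.68 with CSE 1%, -1.36 with CSE 5% and -1.27 with CSE 10%. TXNIP was made a member with earlier results of these data known, so these tests may not be free of that choice. For ARRDC4 every exposed array was above every control array at week 1 and below every control array at weeks 3 and 5. How many of all clusters had arrays so separated was not counted, so this separation alone sets no gene apart. Week 3 less week 1 gave -1.53, -0.71 and -0.82 for CSE 1%, 5% and 10%, and week 5 less week 1 gave -1.93, -1.87 and -1.96. These differences were not tested, because the gene was chosen for them.

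Of 43 named related genes, 18 passed the same interaction with CSE 10% (week 5 less week 1), and 9 of these were negative. Over all clusters 29.6% passed it. Most of the 43 were named for the smallest p in their list, so a high share was built in. The negative ones were MXD1 (-1.52), SLC2A3 (-1.22), NEDD4L (-0.98), KLF10 (-0.89), HK2 (-0.79), DDIT4 (-0.76), NLRC4 (-0.56), SLC2A1 (-0.49) and IRS2 (-0.44). The positive ones were IL18 (1.32), PRKAA1 (1.31), SCD (1.23), NEDD4 (0.96), NXN (0.78), SLC2A12 (0.77), HECW2 (0.73), PYCARD (0.66) and HECW1 (0.39). All of these rest on the control arrays of week 5, whose labels disagree on the week.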

How the results depend on the processing

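The fall of TXNIP at week 5 and its change between weeks 1 and 5 kept direction and call in every alternative run, except TXNIP with CSE 1% at week 5 when all 9 controls were 1 group (-0.39, adjusted p = 0.0915). The change between weeks 1 and 5 was not run with other controls, so its dependence on the week 5 controls was not tested. Its parts differed between the genes. For TXNIP, week 5 less week 1 was 0.086 in controls and -0.59, -1.27 and -1.18 with CSE 1%, 5% and 10%. For ARRDC4, which was not tested, it was 0.91 in controls and -1.01, -0.96 and -1.04 with CSE. Of 234 values of both genes under other settings, 204 kept their direction and call or, where untested, moved by less than 1 SD. With all 9 controls as 1 group TXNIP gave 0.20 for CSE 1% and 0.41 for CSE 10% (adjusted p = 0.0458) at week 1, and -0.45 and -0.48 for CSE 5% and 10% at week 3 (adjusted p 0.0166 and 0.0117). ARRDC4 gave 0.72, 0.083 and 0.18 at week 1, -0.73, -0.54 and -0.56 at week 3 and -0.30, -0.87 and -0.86 at week 5 for CSE 1%, 5% and 10%. The cause was not tested.

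TXNIP at week 1 with CSE 5% lost its call in a fit of those arrays alone (0.29, adjusted p = 0.184), after cyclic loess (0.27, adjusted p = 0.0702) and after centring on housekeeping genes (0.24, adjusted p = 0.105). TXNIP at week 1 with CSE 10% passed after a further quantile normalization (0.25, adjusted p = 0.0477) and with array weights (0.21, adjusted p = 0.0231), and with CSE 1% it was 0.029 after that normalization. ARRDC4 at week 3 with CSE 5% and 10% was -0.14 and -0.14 after centring on housekeeping genes. ARRDC4 at week 5 was -0.99 with CSE 1% and -1.58 with CSE 5% after cyclic loess, and -1.001, -1.62 and -1.57 after the further quantile normalization. With the controls of weeks 1 and 3 it was -0.0084, -0.58 and -0.57.

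Without 1 array at a time TXNIP at week 1 ranged from -0.076 to 0.053 with CSE 1% and from 0.22 to 0.36 with CSE 5%, and at week 3 from -0.019 to 0.065 with CSE 10%. ARRDC4 at week 3 ranged from -0.37 to -0.23 with CSE 5% and with CSE 10%. The lowest array weight, 0.178, was that of array 1 of the week 5 controls, and TXNIP at week 5 kept its calls without it. Cyclic loess shifted the median of all clusters at week 5 by 0.12, 0.14 and 0.14, and 49.8%, 51.9% and 52.0% of calls were then lower, against 62.3%, 63.7% and 64.4%. Centring on housekeeping genes shifted it at week 3 by 0.077, 0.15 and 0.17. Of 228 calls of named related genes against control, 228 kept their sign under all 3 other scalings and 205 kept the call. Not every lost call is marked above. Of 612 list counts under other settings 542 stayed within 1.5 times. Of those that moved, the glucose transporters and kinases lower with CSE 10% at week 5 numbered 13, against 4 to 7 under 6 other settings, and thioredoxin members higher numbered 8, against 2 to 5 under 3. Energy and insulin regulators lower at week 3 numbered 7, against 4 in the separate fit and 3 after housekeeping centring. Replicate numbers were not used as pairs in the main fit. All same-numbered arrays correlated above 0.1 in 1 of 9 comparisons (r -0.21 to 0.50). With 3 arrays per group this check cannot exclude pairing. With the replicate block no call of TXNIP changed, and TXNIP with CSE 5% at week 1 had an adjusted p of 0.0320. The number of arrays, 3 per group, limits what small differences can show.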
